A study of Danio rerio with 5 samples.

Results

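The 3 pools described here are the replicates of a single treatment group: whole zebrafish larvae of the AB strain that had received 15 Gy of protons. They were chosen by their label alone and make up 3 of the 5 samples of the series, and the remaining 2 samples are not used here. Irradiation was at 24 h after fertilization, with a beam of 8 MeV/u at 7.5 Gy/min, and RNA was taken at 7 days. Each pool held 20 animals taken from a group of 60, embryos came from several clutches, and no allele or agent other than the protons is named in the labels. The labels call the pools biological replicates without saying whether they were irradiated, raised or extracted separately, and no batch or scan date is given. Expression was read on an Affymetrix zebrafish array as 1 intensity for each of 15502 probe sets. Of these, 10795 had 1 gene symbol, and they stand for 8793 named genes, some of them under clone names.

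Larval zebrafish rely on cone photoreceptors for vision. In a cone, an opsin that has absorbed light activates the G protein transducin, transducin activates a phosphodiesterase, and the fall in cyclic GMP closes the channels of the cell membrane. The signal then passes to bipolar, amacrine and ganglion cells of the inner retina and on to the brain. In the gut, the exocrine pancreas secretes protease precursors and lipases, and enterocytes take up the products of digestion with the help of fatty-acid-binding proteins. Each of these cell types has transcripts that other larval tissues lack or hold at low levels, so an array of whole larvae reads them beside the transcripts of muscle, skin and liver. In such bulk RNA, fewer cells of a type and less RNA per cell cannot be told apart.

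Replicate 1 lay farthest from the other pools by the spread of its differences. The median log2 intensity was 5.98 in replicate 1, 6.03 in replicate 2 and 6.00 in replicate 3. The processing that the authors name brings all arrays to a common distribution. These medians therefore cannot show whether the pools were alike in overall level. The log2 difference between replicates 1 and 2 had an SD of 0.48 over probe sets, that between replicates 1 and 3 an SD of 0.34, and that between replicates 3 and 2 an SD of 0.25. The median absolute log2 difference was 0.20, 0.15 and 0.14 in the same order. Going by that median, replicate 3 was about as far from replicate 1 as from replicate 2 for a typical probe set. Of the variance, 85.6% lay along a first principal component with replicate 1 at 32.5, replicate 3 at −5.81 and replicate 2 at −26.7. The other component, with 14.4%, placed replicate 3 at −14.0 against 9.08 for replicate 2 and 4.95 for replicate 1. The actin control probe sets gave a 5′ over 3′ signal ratio, which reflects how complete the labelled RNA is, of 0.129 in replicate 1, 0.0350 in replicate 2 and 0.108 in replicate 3, and the same ratio for GAPDH was 0.242, 0.189 and 0.228. Both ratios were thus lowest in replicate 2 and highest in replicate 1, which is the order of the first component. The spacing was not the same. In both ratios replicate 3 lay nearer replicate 1, with replicate 2 farther off, whereas on the first component replicate 3 lay nearer replicate 2. The ratio of the middle to the 3′ actin probe set was also lowest in replicate 2 but highest in replicate 3 (0.505, 0.347 and 0.529). The part of these ratios in the differences below was not tested.

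A pool was counted as apart where its value lay at least 2-fold (1 on the log2 scale) beyond both other pools. The 3 arrays are replicates of 1 group, so no p-value was made, and the distance between replicates 2 and 3 is given as the spread beside each difference of replicate 1. Replicate 1 lay at least 2-fold below both others in 273 probe sets (1.76% of all) and at least 2-fold above both in 18 (0.116%). Replicate 2 lay apart in 20 probe sets below and 5 above, and replicate 3 in 0 below and 7 above. Without replicate 1, 29 probe sets were at least 2-fold higher in replicate 3 than in replicate 2 and 5 at least 2-fold lower. Against replicate 3 alone, replicate 1 was at least 2-fold lower in 291 probe sets and higher in 18. Against replicate 2 alone, the counts were 556 lower and 220 higher, so the number of higher probe sets depended on which pool replicate 1 was set against.

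**Figure D1:**
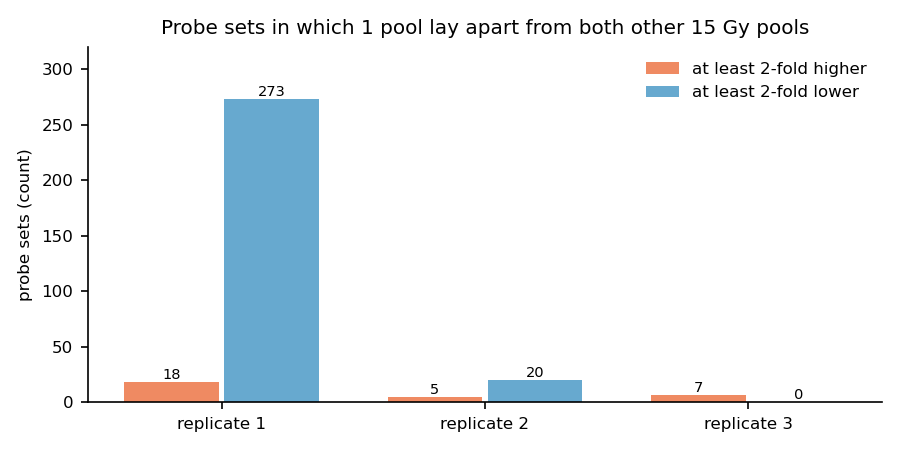
Count of probe sets (vertical axis) in which 1 of the 3 pools at 15 Gy lay at least 2-fold above (orange) or below (blue) both others. Replicate 1 has 273 probe sets below both other pools, against 20 for replicate 2 and 0 for replicate 3.

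Among named genes, replicate 1 was at least 2-fold below both others in 159 (1.81%) and above both in 11 (0.125%). In 157 of the 159, replicates 2 and 3 lay within 2-fold of each other, and in 158 the distance to the nearer of them exceeded the distance between them. The genes were chosen by the distance of replicate 1, so these counts are no separate result. Over all 15502 probe sets, only 29 were at least 2-fold higher in replicate 3 than in replicate 2, and 5 at least 2-fold lower. The median distance was −1.33 (log2) and the median separation of replicates 2 and 3 was 0.46. Of the 159 genes, 30 were in lists of retinal genes, 29 in lists of neuronal genes and 7 in the list of exocrine pancreas genes. The retinal and neuronal lists together hold 170 of the 8793 named genes (1.93%). Further probe sets of these genes gave a second reading. For 28 genes there were 38 such probe sets, of which 36 were lowest in replicate 1 and 15 were at least 2-fold lower than in both other pools. Over all probe sets these shares were 31.7% and 1.76%. The further probe sets were read on the same arrays, so they are no independent test.

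Gene lists were compared by the median over their measured members of the log2 difference between replicate 1 and the mean of the others, which was 0.05 over all named genes. Of 51 lists, 7 had a median of −0.5 or lower and 0 a median of 0.5 or higher. The 7 were cone and rod phototransduction, synaptic vesicle and release, exocrine pancreas, photoreceptor structure and fate, neuronal structure and channels, inner retina neurons, and neural progenitors and developmental factors. On the other side, the medians reached 0.48 for epidermis and simple epithelium, 0.40 for inflammation and acute phase, 0.39 for slow and heart muscle and 0.39 for fast skeletal muscle. With replicate 3 as the only comparison pool (replicate 2 left out) the epidermis median was 0.31 and that of slow and heart muscle 0.18, and with replicate 2 alone they were 0.69 and 0.62.

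**Figure D2:**
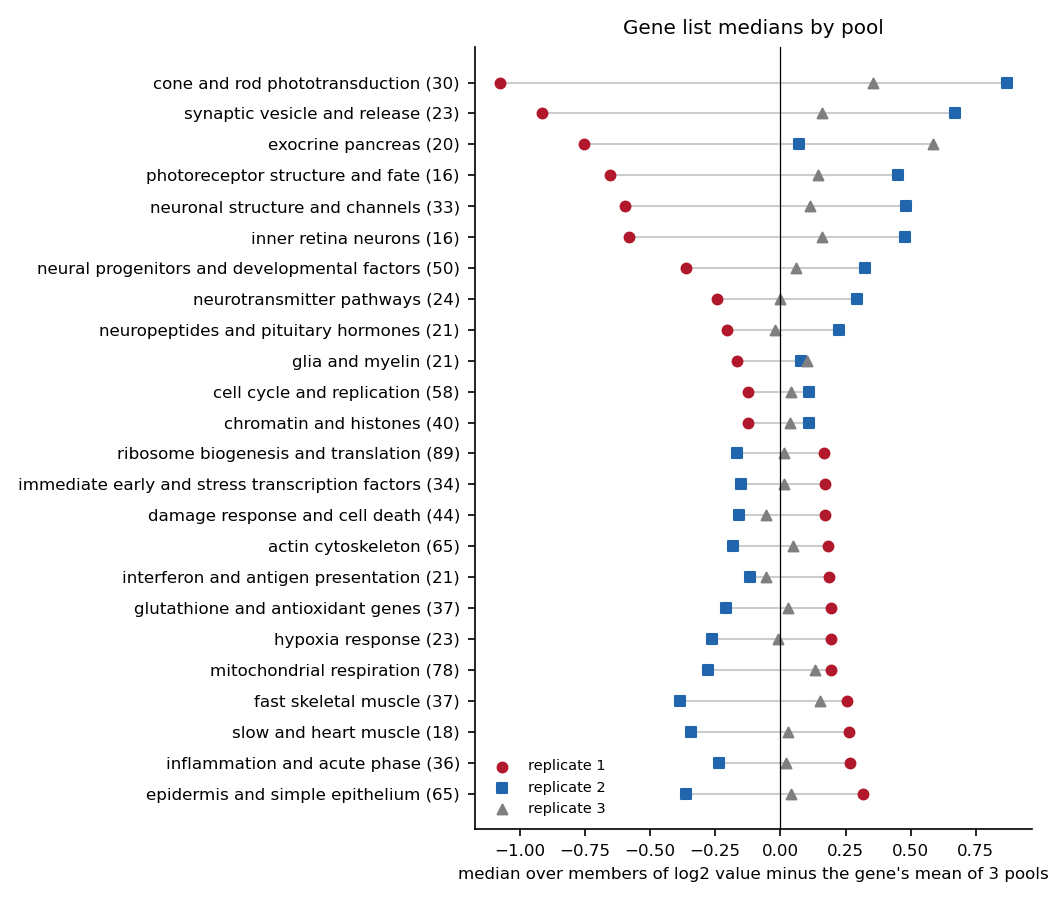
Medians over list members of the log2 value minus the gene's mean of the 3 pools (horizontal axis), for the 12 lists with the lowest and the 12 with the highest difference of replicate 1, with the number of measured members in brackets. In the phototransduction list the medians are −1.08 in replicate 1, 0.87 in replicate 2 and 0.36 in replicate 3, and in the exocrine pancreas list, where replicate 3 is the highest pool, they are −0.75, 0.07 and 0.59.

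The largest differences were those of the cone light response. The list of phototransduction genes had 30 measured members, of which 18 (60%) were at least 2-fold lower in replicate 1 than in both others and 29 were lowest there, against 1.81% and 29.4% of all named genes. Its median difference was −1.61, and −2.69 without the dimmest 30% of probe sets. By role, the median was −2.67 for 6 opsins, −2.62 for 12 genes of transducin, phosphodiesterase and the channels, and −0.50 for 12 genes of shut-off and recovery.

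The green cone opsin gene opn1mw1 had a log2 intensity of 6.88 in replicate 1, 11.41 in replicate 2 and 10.75 in replicate 3. The ultraviolet cone opsin gene opn1sw1 had 7.74, 12.01 and 11.51, and the blue cone opsin gene opn1sw2 had 7.13, 11.36 and 10.55. Replicate 1 was therefore 14.6-fold, 13.7-fold and 10.7-fold below the nearer of the other pools for these 3 pigments, while replicates 2 and 3 differed by at most 0.81 on the log2 scale. The red cone opsin gene opn1lw1 was dim in all pools, at 5.08, 5.58 and 5.26, and its pools lay within 2-fold. Green opsin genes are close paralogs, and a probe set may read more than 1 of them.

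Downstream of the pigments, the values separated in the same way. The cone transducin subunit genes gngt2b (8.36, 12.16 and 11.56 in replicates 1, 2 and 3), gnb3b (6.23, 10.06 and 9.28) and gnat2 (5.60, 8.41 and 7.98) were all lowest in replicate 1. For gngt2b, replicate 1 was 9.19-fold below replicate 3. The catalytic cone phosphodiesterase gene pde6c stood at 6.19, 9.64 and 9.06, and the inhibitory subunit gene pde6ha at 8.61, 12.21 and 11.22. Genes of rods, the dim-light receptors, were also lowest in replicate 1 at lower levels: the rod transducin gene gnat1 had 5.55, 7.52 and 6.82, and its partner gngt1 had 6.18, 9.21 and 8.43. The recovery genes rcvrn2 (5.79, 8.83 and 8.37) and rcvrn3 (4.77, 7.68 and 7.38), which encode recoverins, and pdcb (5.71, 8.72 and 8.19), which encodes a phosducin, had separations of a like size. The member against the direction, the shut-off anchor gene rgs9bp, lay near the floor of the array at 2.46, 2.43 and 2.43. In 29 of the 30 genes replicate 2 was the highest pool.

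**Figure D3:**
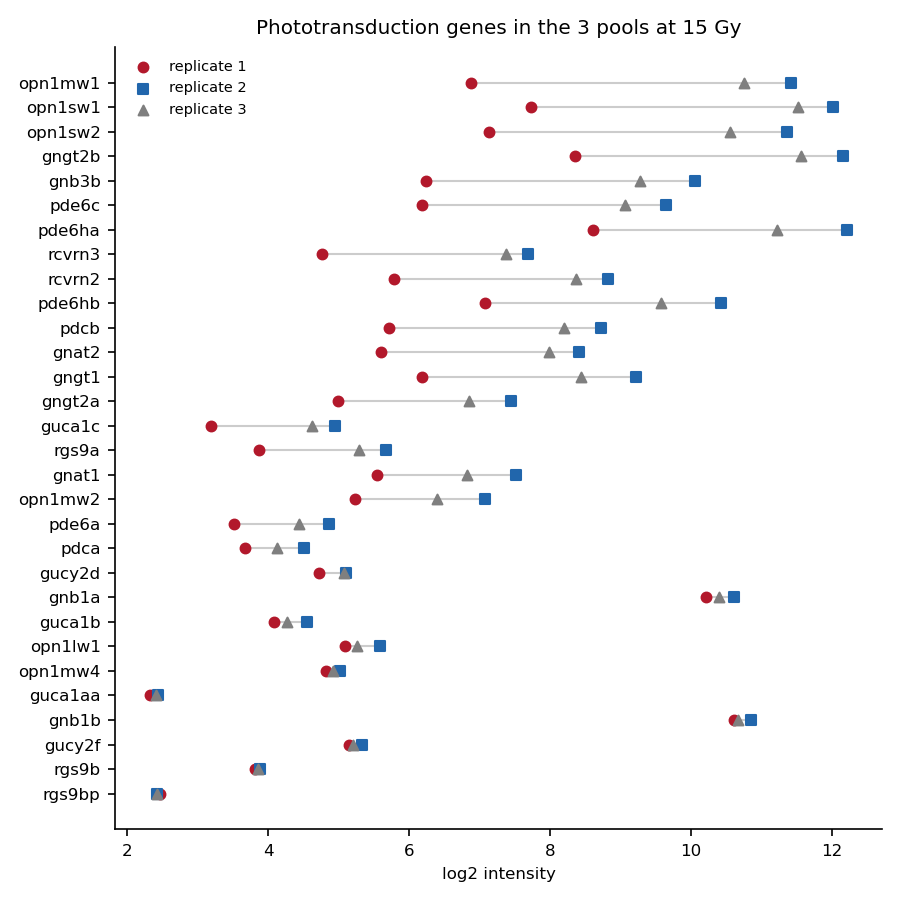
Log2 intensity (horizontal axis) of the 30 measured phototransduction genes in the 3 pools at 15 Gy, ordered by the distance of replicate 1 from the nearer of the other pools, 1 point per pool. In 18 genes replicate 1 lies at least 1 unit below both others, from 6.88 against 10.75 and 11.41 for opn1mw1, while genes at the foot such as rgs9bp hardly differ.

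Genes of photoreceptor structure and fate had a smaller median difference than those of the light response. In the list of photoreceptor structure and fate, 5 of 16 measured members were at least 2-fold lower in replicate 1 and 14 were lowest there, with a median of −0.98. The shares of all named genes were 1.81% and 29.4%. The homeobox gene crx, a regulator of photoreceptor differentiation, was at 5.54 in replicate 1, 7.90 in replicate 2 and 7.47 in replicate 3. The gene neurod1, a neuronal differentiation factor that retinal cells also use, was at 6.79, 8.88 and 8.43. The regulator six7, which acts in cone opsin expression in zebrafish, was at 3.89, 5.57 and 5.36. A dimmer probe set of six7 did not separate (3.35, 3.42 and 3.35). Replicate 1 was 3.82-fold below replicate 3 for crx. In contrast, the trafficking gene unc119b was slightly higher in replicate 1 (5.74 against 5.35 in each of the others).

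Transcripts of other retinal cells followed. Of 16 measured inner retina genes, 5 were at least 2-fold lower in replicate 1 and 15 were lowest there (median −0.87). The shares of all named genes were 1.81% and 29.4%. The calcium-binding protein gene calb2b had 7.04, 9.82 and 9.15 in replicates 1, 2 and 3. The bipolar cell regulator gene vsx1 had 6.12, 7.85 and 7.80, which put replicate 1 3.19-fold below replicate 3 while the other pools differed by 0.05. For the visual cycle and the retinal pigment epithelium, which recycles the chromophore of the opsins, only 7 genes were measured, with a median of 0.03 and 2 genes at least 2-fold lower in replicate 1. Those 2 were rbp3 (5.82, 8.51 and 7.91), whose protein carries retinoids between photoreceptors and the epithelium, and rlbp1a (5.92, 7.07 and 7.00), which encodes a retinoid-binding protein. The isomerase gene rpe65a of the pigment epithelium itself was at 7.62, 8.06 and 8.06, within 2-fold. Lens crystallins had a median of 0.00 over 11 genes and 0 members at least 2-fold lower in replicate 1. With a share of 1.81% over all named genes, a count of 0 in 11 is no separate result. In 2 of the 11 the pools still spanned at least 2-fold, against 5.3% of all named genes, each with replicate 3 highest. These were cryba4 (9.74, 8.865 and 10.49) and crybb1 (9.34, 9.97 and 10.85).

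Neuronal transcripts outside the retina lists were lower in replicate 1 as well. Of 23 measured genes for synaptic vesicles and release, 13 were at least 2-fold lower in replicate 1 and 22 were lowest there (median −1.37), and of 33 genes for neuronal structure and channels the counts were 10 and 28 (median −0.89). Among all named genes the shares were 1.81% and 29.4%. The vesicle protein genes sypb and sncgb, for a synaptophysin and a synuclein, were at 7.49, 9.70 and 9.25 and at 7.98, 10.19 and 9.83 in replicates 1, 2 and 3. A dimmer probe set of sncgb also separated (5.435, 6.78 and 6.69), and another hardly did (5.65, 5.99 and 5.70). The fusion protein gene snap25b was at 7.73, 9.77 and 9.28, and the calcium sensor gene syt1a at 8.67, 10.77 and 9.99. For snap25b, replicate 1 was 2.92-fold below replicate 3, against a log2 distance of 0.49 between the other pools. Some of these genes are used by photoreceptor and retinal terminals too. The list holds an exception in bin1b, a membrane-shaping protein gene, which was at 4.19 in replicate 1 and at 3.08 in replicate 2, with replicate 3 lower than replicate 1 by 0.89.

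Genes of nerve structure had smaller but parallel separations. The sodium pump gene atp1a3a was at 6.26, 8.00 and 7.84, and the microtubule regulator gene stmn1b at 8.47, 10.19 and 9.78. Dimmer probe sets of atp1a3a (4.84, 5.49 and 5.18) and stmn1b (6.10, 7.19 and 6.76) separated less. Not every neuronal gene differed: the sodium pump subunit gene atp1b1b was at 8.42, 8.41 and 8.39, and the ubiquitin hydrolase gene uchl1 at 8.40, 8.03 and 8.13. Of 24 measured neurotransmitter genes, 5 were at least 2-fold lower in replicate 1, against 1.81% of all named genes, and the list median was −0.36. Of the 5, 3 were among the 8 genes of GABA and glycine, the inhibitory transmitters. The GABA-synthesis gene gad1b had 6.36, 9.27 and 8.64, a distance of 4.83-fold, and the second such gene, gad2, had 6.38, 8.35 and 7.64. The vesicular GABA transporter gene slc32a1 had 5.92, 7.85 and 7.52. The medians were −0.53 for 8 glutamate genes, 2 of them at least 2-fold lower, −0.37 for the 8 of GABA and glycine and −0.19 for 8 of acetylcholine and amines, 0 of them at least 2-fold lower.

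Developmental transcription factors of the nervous system were lower by a smaller margin. Of 50 measured members, 38 were lowest in replicate 1 and 6 at least 2-fold lower, against 29.4% and 1.81% of all named genes. The median was −0.54, which was −0.40 with replicate 3 as the only comparison pool and then no longer past −0.5. The forebrain gene neurod6b was at 5.11, 7.12 and 6.69 in replicates 1, 2 and 3, and the eye and brain regulator gene pax6a at 6.52, 8.25 and 7.80. The gene emx3 lay the other way, at 6.08, 5.50 and 5.50. Cell cycle and replication genes, many of them used in the growing retina and brain, were lowest in replicate 1 in 44 of 58. None of the 58 (0) was at least 2-fold lower, and the shares of all named genes were again 29.4% and 1.81%. The replication clamp gene pcna was at 10.45, 10.89 and 10.80.

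Glial transcripts were mixed. Of 21 measured genes, 2 were at least 2-fold lower in replicate 1, against 1.81% of all named genes, and the median was −0.25. The glutamate transporter gene slc1a2b had 9.76, 11.59 and 11.11, and the myelin gene mbpa had 5.08, 6.46 and 6.31. The radial glia filament gene gfap had 8.10, 8.01 and 8.23, so its pools did not separate. The other measured radial glia marker, fabp7a, was lowest in replicate 1 (10.15, 11.14 and 11.07), within 2-fold of the other pools. Hox genes, which pattern the trunk and hindbrain, had a median of 0.06 over 39 genes with 0 at least 2-fold lower. The 73 cytosolic ribosomal protein genes had a median of 0.01 with 0 at least 2-fold lower. In lists of these sizes a share of 1.81% gives few or no genes, so the counts of 0 are no separate result.

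**Figure D4:**
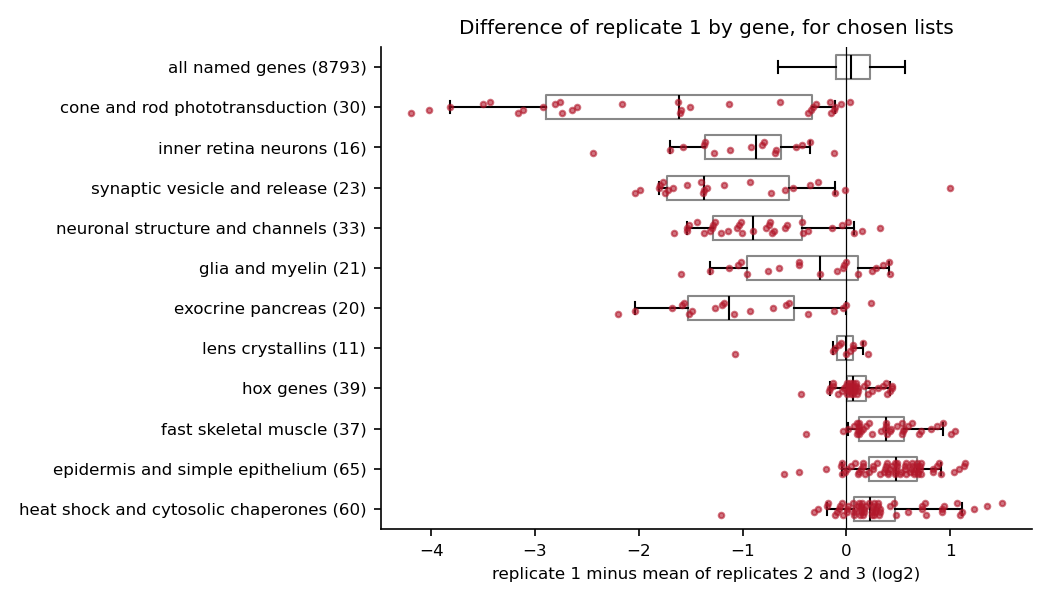
Log2 difference between replicate 1 and the mean of replicates 2 and 3 (horizontal axis) for the members of 11 lists, each point a gene, with the number of genes in brackets boxes at the median and quartiles, and whiskers from percentile 5 to percentile 95. The box of all 8793 named genes is centred at 0.05, the phototransduction box at −1.61 and the hox box at 0.06.

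Digestive transcripts had another order of pools. In the exocrine pancreas list 17 of 20 measured genes were lowest in replicate 1 and 7 were at least 2-fold lower there, but 15 were highest in replicate 3. Among all named genes these shares were 29.4%, 1.81% and 14.4%. The list median of the difference was −1.13, and −0.74 with replicate 2 as the only comparison pool. The chymotrypsinogen gene ctrb.1 had 5.61 in replicate 1, 7.00 in replicate 2 and 8.61 in replicate 3. The trypsinogen gene prss1 had 7.38, 8.50 and 9.44, and the elastase precursor gene ela3l had 5.35, 7.07 and 7.69. The carboxypeptidase gene cpa5 had 6.14, 7.05 and 8.36. For ctrb.1 replicate 1 was 2.62-fold below replicate 2, and replicates 2 and 3 were themselves 1.61 apart on the log2 scale, so for this gene the spread between them was larger than the distance of replicate 1. The amylase-like gene amy2al1 lay the other way, at 5.52, 5.28 and 5.30. Protease genes of this group are close paralogs, and their probe sets may read more than 1 of them.

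The intestine list had a small median difference of replicate 1, −0.12 over 38 genes. Of the 38, 4 were at least 2-fold lower in replicate 1, against 1.81% of all named genes. The highest pool was replicate 1 in 8, replicate 2 in 9 and replicate 3 in 18. Over all named genes those shares were 44.8%, 34.7% and 14.4%, so the list leaned to replicate 3 as the pancreas list did. The 4 members with the largest ranges had replicate 1 lowest and replicate 3 highest, and they are named for that range. The chitinase gene chia.2 was at 4.12, 7.41 and 8.07, a distance of 9.78-fold between replicate 1 and replicate 2. The fatty-acid-binding protein genes fabp2 and fabp6, markers of enterocytes, were at 6.13, 7.61 and 8.99 and at 5.40, 7.53 and 8.11. The brush border gene vil1 was at 4.38, 5.21 and 5.92. On the other side, the cathepsin gene ctsl.1 was higher in replicate 1, at 8.10, 7.18 and 7.64.

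**Figure D5:**
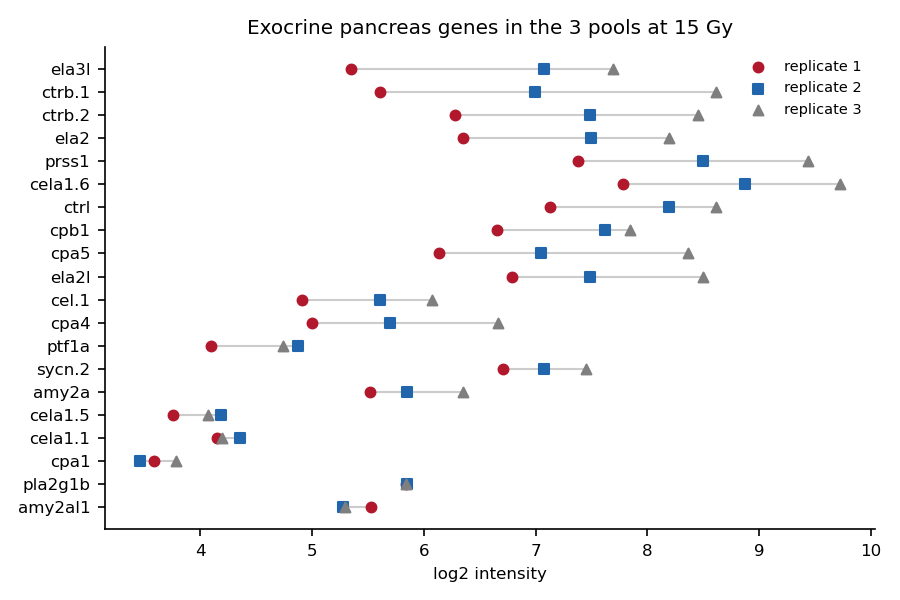
Log2 intensity (horizontal axis) of the 20 measured exocrine pancreas genes in the 3 pools at 15 Gy, ordered by the distance of replicate 1 from the nearer of the other pools, 1 point per pool. Unlike the phototransduction genes, most of these genes are highest in replicate 3, as ctrb.1 with 8.61 against 7.00 in replicate 2 and 5.61 in replicate 1.

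Replicate 3 itself was at least 2-fold above both other pools in 6 named genes (0.0682%) and at least 2-fold below in 0. The 6 were the protease genes ctrb.1, cpa5 and ela2l, the lipid carrier genes fabp2 and apoa4b.2, and uox, which encodes urate oxidase (4.95 in replicate 1, 5.08 in replicate 2 and 6.39 in replicate 3). Over 55 liver plasma protein genes the median difference of replicate 1 was 0.06. Of these, 1 was at least 2-fold lower in replicate 1 (1.81% of all named genes were), the hepatocyte lipid carrier gene fabp10a with 5.98, 7.72 and 7.84. The apolipoprotein gene apoea lay the other way, at 10.41, 9.24 and 9.66. The list also holds rbp4l (9.12, 11.01 and 9.99), known in fish as purpurin, a retinol-binding protein of the retina, which was highest in replicate 2.

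The pools could be sorted by order as well as by distance. Of 796 probe sets with a range of at least 2-fold over the 3 pools (5.13%), 530 (66.6%) had replicate 1 lowest and replicate 2 highest, 219 (27.5%) had replicate 2 lowest and replicate 1 highest, and 43 (5.40%) had replicate 1 lowest and replicate 3 highest. The other orders held 4 probe sets in all. Named genes with that range numbered 466 (5.3%). Of the 279 with replicate 1 lowest and replicate 2 highest, 78 (28%) were in the retinal or neuronal lists, which hold 1.93% of all named genes. Of the same 279, 0 were in the pancreas or intestine lists. Of the 34 with replicate 1 lowest and replicate 3 highest, 20 were in the pancreas or intestine lists, which hold 58 of all named genes (0.66%). Of the same 34, 1 (2.94%) was in a retinal or neuronal list. The counts of 0 and 1 lie near what the shares of 0.66% and 1.93% give, so they show no lack of such genes. The 151 genes with replicate 2 lowest and replicate 1 highest included 11 epidermis, 10 heat shock and 6 fast muscle genes, from lists that hold 65, 60 and 37 of the 8793 named genes, and 64 of the 151 were in any list.

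By any amount, replicate 1 was above both others in 3940 named genes, but few reached 2-fold. Among the 11 at least 2-fold above both others were the glycogen-targeting phosphatase subunit gene ppp1r3c2b (5.72 in replicate 1, 4.19 in replicate 2 and 4.15 in replicate 3), the retinoic acid hydroxylase gene cyp26a1 (8.38, 6.92 and 7.07), the collagenase gene mmp13a (11.91, 10.27 and 10.71) and the stress-response gene ddit4 (7.14, 6.07 and 6.10). Chaperone genes in this set were the HSP70 partner dnajb1b (9.41, 7.76 and 8.05) and hspa1b (7.74, 6.03 and 6.38). The inducible chaperone gene hsp70.3 (10.91, 9.17 and 9.93) was highest in replicate 1 and within 2-fold of replicate 3, and like hspa1b it has near-identical copies that the probes may not separate. Of 60 measured heat shock and chaperone genes, 44 were highest in replicate 1 (44.8% of all named genes were) and 1, dnajb1b, was at least 2-fold higher there, with a median of 0.23 (hspa1b is not in the list). In the inflammation list 26 of 36 were highest in replicate 1, among them the gelatinase gene mmp9, at 12.47, 11.70 and 11.96, which is within 2-fold.

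Of 44 measured genes of the damage response and cell death, 31 were highest in replicate 1 and the median difference was 0.26, with 0 at least 2-fold above both other pools. Of all named genes, 44.8% were highest in replicate 1, 0.125% lay at least 2-fold above both and 5.3% spanned at least 2-fold. Medians of like size were those of proteasome (0.25) and actin cytoskeleton (0.27) genes. In 4 of the 44 damage response genes the pools spanned at least 2-fold, each with replicate 2 lowest and replicate 1 highest: the caspase gene caspa (6.63 in replicate 1, 5.42 in replicate 2 and 5.95 in replicate 3), the survival gene mcl1b (8.97, 7.80 and 8.37), the death-promoting gene pmaip1 (6.36, 5.26 and 5.55) and the stress gene gadd45bb (8.19, 7.11 and 7.37). The genes mdm2 (9.01, 8.22 and 8.50) and ccng1 (12.26, 11.95 and 12.22), both known as targets of the damage response, spanned less than 2-fold.

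Replicate 2 was the lowest pool for most members of many lists, those of muscle and skin among them. It was at least 2-fold below both other pools in 14 named genes (0.159%), of which 3 were in the fast muscle list and 2 in the slow and heart muscle list, which hold 37 and 18 of all named genes. The 8 with the largest distance were sh3bgr (8.78 in replicate 1, 6.62 in replicate 2 and 8.27 in replicate 3), the calcium buffer gene pvalb4 (11.99, 10.14 and 11.74), the laminin gene lamc1 (7.65, 5.67 and 7.04), the muscle chaperone gene hsp90aa1.1 (9.56, 7.68 and 8.98), the actin-binding repeat protein gene xirp1 (7.74, 5.95 and 7.16), the muscle phosphoglycerate mutase gene pgam2 (10.47, 8.97 and 10.11), the myosin light chain gene myl13 (11.68, 10.21 and 11.35) and the Z-disc gene ldb3a (9.56, 7.99 and 9.12). In all 8, replicates 1 and 3 were closer to each other than either was to replicate 2. The 8 were chosen by the distance of replicate 2, so this closeness is no separate result. The creatine kinase gene ckma of fast muscle separated little (13.18, 12.92 and 13.23).

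By list, replicate 2 was the lowest pool in 35 of 37 fast muscle genes, 59 of 65 epidermis genes, 73 of 78 mitochondrial respiration genes and 35 of 40 proteasome genes, against 39.1% of all named genes. The same held for lists of other kinds, with 78 of 89 ribosome biogenesis and translation genes, 32 of 37 antioxidant genes and 51 of 65 actin cytoskeleton genes. Replicate 2 was lowest less often in cytosolic ribosomal protein genes (34 of 73), glycolysis genes (16 of 30) and heart muscle genes (7 of 13). For most of these genes the distance was below 2-fold: replicate 2 was at least 2-fold lower in 3 fast muscle genes, 0 epidermis genes and 0 mitochondrial respiration genes. The fast muscle difference of replicate 1 (median 0.39) was 0.08 with replicate 3 as the only comparison pool and 0.65 with replicate 2, so its size depended on replicate 2. The epidermis list had medians about each gene's mean of 0.32 in replicate 1, −0.36 in replicate 2 and 0.04 in replicate 3. The keratin gene krt4 was at 12.47, 11.90 and 12.44, the annexin gene anxa1c at 9.71, 8.34 and 8.81 and the tight junction gene cldn23.1 at 9.61, 8.11 and 8.84. The other measured epidermis marker, the keratin gene krt5, separated little (10.92, 10.89 and 11.04). Within the list, replicate 2 was lowest in 11 of 16 keratin genes, 20 of 21 annexin and S100 genes and 28 of 28 junction genes. The actin 5′ to 3′ ratio was lowest in the same pool, and its part in these values was not tested.

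Markers of the cell types varied in level. Of 54 defining markers of cell types, 40 were measured, and 27 of these lay above the median of every array in all 3 pools. The remaining 13 included the only measured red blood cell marker, alas2 (4.01 in replicate 1, 4.06 in replicate 2 and 4.06 in replicate 3). They also included the lens marker cryaa (5.50, 5.25 and 5.89). Both alas2 and cryaa were below the array median in all 3 pools, so these markers cannot show whether their cell types were present. Other lens genes were brighter, as crybb1 at 9.34, 9.97 and 10.85. In replicate 1 the only measured markers of rods (gnat1) and oligodendrocytes (mbpa) were below the array median as well. The cone markers were above the array median in replicate 1 for opn1mw1, opn1sw1, opn1sw2 and pde6c and just below it for gnat2 (5.60 against 5.98). The myeloid marker csf1ra was listed at the same value, 4.55, in all 3 arrays.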

How the data were processed

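The authors deposited linear intensities, which ran from 4.01 to 22787 over the 3 arrays at 15 Gy. They name RMA, per the submitters' processing notes, a method that subtracts background, brings all arrays to a common distribution and combines the probes of a set. Version, software and chip definition: not given in the sources used here. RMA usually ends on a log2 scale, so the deposited intensities appear to be its values returned to a linear scale, which no label states. A common distribution can hide shifts shared by most transcripts, and differences of dim genes are compressed. Biotin-labelled cRNA came from 6 µg of total RNA per pool, per the labels' protocols. The number of arrays limits the precision.

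Intensities were turned to log2 with no constant (0 values were below 1), and 115 control probe sets were left out. The columns of 2 other samples were not used. Of the probe sets, 10795 had 1 symbol in the platform annotation, 135 had several and 4572 were not listed. Symbols were updated through Entrez identifiers with RefSeq's table of GRCz12tu (10711 matched, 1 changed). A gene was its probe set with the highest mean over the 3 arrays. Of 3101 list entries 1989 were measured, 28 through older names, and 104 genes were in several lists.

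The members and lists were chosen with earlier results of these data known. Named genes were, by rule, the 15 with the largest distance each way for replicate 1, 8 each way for replicates 2 and 3, up to 8 with and 3 against the direction of each list past 0.5 in median, up to 4 by range in each other list, and 21 always named, of which 2 were not measured. Named after their values were seen were gnat1, opn1lw1, fabp7a, alas2, csf1ra and krt5. Counting steps were tested on simulated data. Alternatives used limma 3.58.1 in R 4.3.3. Other steps used pandas 2.3.3, numpy 2.4.6 and matplotlib 3.10.9 in Python 3.11.15.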

Additional observations from a re-analysis of the deposited data

How the results depend on the processing

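No list median of 0.5 or more in size changed sign under the 11 settings tried. Nor did any named gene in which replicate 1 lay at least 2-fold beyond both other pools. Medians near 0 did change sign. That of retinal pigment epithelium and visual cycle (0.03) ran from −0.20 to 0.06, and that of cytosolic ribosomal proteins (0.01) from −0.07 to 0.04. The count of probe sets at least 2-fold lower in replicate 1 (273) was 169 on log2(value + 16), 701 at a 1.5-fold threshold and 61 at 3-fold, and ran from 291 to 556 when replicate 2 or 3 was left out. The count of higher probe sets (18) was 11 after cyclic loess, 11 on log2(value + 16), 238 at 1.5-fold and 0 at 3-fold, and ran from 18 to 220 when replicate 2 or 3 was left out. The number of lists with a median of 0.5 or higher (0) was 1 after centring on the medians and 1 without the dimmest 30% of probe sets, where interferon and antigen presentation reached 0.50, and ran from 0 to 3 when a replicate was left out, with 3 when replicate 3 was left out. The lists at −0.5 or lower (7) ran from 6 to 8. The share of probe sets with replicate 1 lowest and replicate 2 highest (66.6%) was 61.3% after centring on the medians and 73.5% after cyclic loess. That share, unlike the settings, was not planned and was added after the data were seen. The first axis (85.6%) ran from 85.7% to 87.7%. Of 458 list medians under alternatives 39 moved by more than the spread between pools, and of 2078 values of named genes 11. The cause was not tested. Without replicate 1 the difference cannot be formed. No paired analysis was possible because a single group was used and its replicate numbers pair no samples. Intensities without detection calls limit what can be said of dim genes.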

Other observations

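Lists whose median lay near or above 0 still held single genes far below both other pools in replicate 1. The translation list had a median difference of 0.25 with 69 of 89 genes highest in replicate 1 (44.8% of all named genes were). Yet its elongation factor gene eef1a1a was at 6.23 in replicate 1, 8.08 in replicate 2 and 7.56 in replicate 3. In the mitochondrial respiration list (median 0.29) the phosphate carrier gene slc25a3a was at 6.08, 8.01 and 7.54. In the glycolysis and citric acid cycle list (median 0.12) the lactate dehydrogenase gene ldhbb was at 5.08, 6.49 and 6.36. The fatty acid elongase gene elovl4b was at 5.83, 8.40 and 7.99, within a list of median −0.14. Members at least 2-fold lower in replicate 1 numbered 1 of 89, 1 of 78, 1 of 59 and 4 of 44 in these 4 lists, in the order given. Of all named genes 1.81% were. The tissues that express these single genes were not read separately. Without replicate 2 the medians were 0.15 for translation, 0.06 for mitochondrial respiration and 0.04 for glycolysis and the citric acid cycle, and without replicate 3 they were 0.34, 0.47 and 0.23.

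The hypoxia list was divided. Its median was 0.29 over 23 genes, 0.15 without replicate 2 and 0.48 without replicate 3, with the oxygen sensor gene egln3 highest in replicate 1 at 7.28, 5.90 and 6.31. Its 2 genes at least 2-fold lower there were ngb, for neuroglobin, an oxygen-binding globin of nerve cells, at 4.77, 6.70 and 6.05, and ndrg1b at 5.79, 7.48 and 7.05. Among genes in no list, the channel gene aqp9b (3.60, 6.68 and 6.21) and the nucleoside diphosphate kinase gene nme2a (4.74, 7.66 and 7.08) had distances of 6.11-fold and 5.08-fold.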
